A study of Mus musculus with 4 samples.

Results

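The dystrophin complex of heart was followed through 9 genes, Dmd, Utrn, Dag1, Sgca, Sgcb, Sgcd, Sspn, Dtna and Sntb1, of 21670 protein-coding genes in the nuclear genome, chromosome Y left out. They were taken by name as genes of dystrophin, its relative utrophin, dystroglycan, the sarcoglycans, sarcospan, dystrobrevin and syntrophin. Every annotated start of each gene was examined on its own, and a start was called marked where a deposited peak came within 1000 bp of it. The mark was H3K4me3, histone H3 trimethylated at lysine 4, which is found at promoters in use, and it was mapped by chromatin immunoprecipitation and sequencing. The tissue was heart of adult female B6CASTF1/J mice, 2 months old and with no treatment named, which are F1 hybrids of the C57BL/6J and CAST/EiJ strains. The 4 libraries came from pool G, labelled biological replicate 1, and pool H, labelled biological replicate 2. Each pool joined 2 heart biosamples and carried 2 technical replicates. All libraries share 1 donor record in the labels, so a difference between the pools may be technical. The data were 4 peak lists on mm10, 1 for pool G, 1 for pool H and a pair for both pools together, called replicated and pseudoreplicated. The last pair shared 24037 identical peaks and is not independent evidence. With 1 list per pool no test was possible, and the values below are given side by side.

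Dystrophin is a long rod beneath the muscle membrane that ties the actin cytoskeleton to dystroglycan, which binds laminin outside the cell. The sarcoglycans and sarcospan brace that link within the membrane, and dystrobrevin and the syntrophins hold signalling proteins at its inner face. Loss of dystrophin or of any of several sarcoglycans causes muscular dystrophy, and the heart is often affected. Dmd and Utrn each have several promoters, which make full-length forms from the 5′ end and shorter forms from starts inside the gene.

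All 9 genes carried a promoter peak in each of the 4 lists. Over all coding genes the share was 63.0% in the replicated list, 63.4% in pool G and 61.3% in pool H. Some of the alternative starts were marked and others were not. Starts within 1000 bp of each other make up a start region, and 14 of the 22 coding start regions of GENCODE M21 were marked, in every list. Of the 19 regions in genes with more than 1 region, 11 were marked (57.9%), where 37.7% of such regions were marked over all coding genes. Of all coding genes with more than 1 region, 55.0% had some regions marked and some not. RefSeq adds further Dmd starts, and by its messenger RNA starts alone 15 of 26 such regions of the 9 genes were marked (57.7%), where the share over all genes was 41.7%. With both annotations joined, which is the catalogue used from here on, 17 of 32 regions were marked in the replicated list and 15 were marked in none. The 5′ starts of Utrn, 2 marked regions by GENCODE alone, are 1 region there. In genes with more than 1 region the joined count was 14 of 29 (48.3%), and no share over all genes was taken for it. The shares over all genes include genes with no marked region, 32.7% of those with more than 1 region in GENCODE. Each of the 9 genes had a marked region, so these shares are not like for like.

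The sequences around 8 of these starts are shown because they set marked and unmarked starts of the same gene side by side, and the CpG-poor muscle start of dystrophin beside CpG-rich starts. Each runs 5′ to 3′ in the direction of transcription, from 250 bases before the start to 50 bases from it on. CpG dinucleotides are in capitals. They are from the mm10 (GRCm38) C57BL/6J reference, 6 from the RefSeq promoter table of that build and those of Utrn A and B from the genome, and so do not show CAST/EiJ variants.
Dmd muscle start, marked, chrX:82948620-82948919, plus strand: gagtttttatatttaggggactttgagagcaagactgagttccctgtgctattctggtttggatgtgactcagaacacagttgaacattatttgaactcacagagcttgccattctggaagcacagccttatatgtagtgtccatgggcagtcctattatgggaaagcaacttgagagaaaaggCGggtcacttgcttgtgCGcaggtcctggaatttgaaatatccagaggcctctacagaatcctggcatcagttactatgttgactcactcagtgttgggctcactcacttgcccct
Dmd Dp71 start, marked, chrX:85048045-85048344, plus strand: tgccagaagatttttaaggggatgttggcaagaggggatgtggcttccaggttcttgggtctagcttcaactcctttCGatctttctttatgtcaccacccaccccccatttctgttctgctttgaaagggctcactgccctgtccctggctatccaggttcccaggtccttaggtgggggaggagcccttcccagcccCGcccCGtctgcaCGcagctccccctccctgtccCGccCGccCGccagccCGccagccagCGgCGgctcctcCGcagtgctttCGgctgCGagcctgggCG
Utrn A start, marked, chr10:12869316-12869615, minus strand: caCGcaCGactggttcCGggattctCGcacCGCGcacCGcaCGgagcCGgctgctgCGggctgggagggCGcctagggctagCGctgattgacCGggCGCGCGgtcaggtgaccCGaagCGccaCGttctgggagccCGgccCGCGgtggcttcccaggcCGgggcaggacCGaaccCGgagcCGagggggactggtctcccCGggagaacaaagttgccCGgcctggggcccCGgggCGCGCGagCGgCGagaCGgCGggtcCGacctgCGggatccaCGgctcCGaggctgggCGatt
Utrn curated start, unmarked, chr10:12861686-12861985, minus strand: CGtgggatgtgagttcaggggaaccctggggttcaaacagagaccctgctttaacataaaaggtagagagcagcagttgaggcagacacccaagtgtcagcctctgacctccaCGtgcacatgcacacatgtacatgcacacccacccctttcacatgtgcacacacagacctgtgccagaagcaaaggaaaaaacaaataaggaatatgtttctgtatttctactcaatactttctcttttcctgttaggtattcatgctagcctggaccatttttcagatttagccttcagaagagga
Utrn B start, marked, chr10:12813566-12813865, minus strand: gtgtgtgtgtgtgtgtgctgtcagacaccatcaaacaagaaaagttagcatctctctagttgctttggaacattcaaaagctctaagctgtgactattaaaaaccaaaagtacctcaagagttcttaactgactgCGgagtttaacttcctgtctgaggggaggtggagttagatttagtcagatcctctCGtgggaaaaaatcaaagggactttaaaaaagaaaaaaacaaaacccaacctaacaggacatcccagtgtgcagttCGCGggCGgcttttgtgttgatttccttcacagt
Sspn outer start, unmarked, chr6:145931623-145931922, plus strand: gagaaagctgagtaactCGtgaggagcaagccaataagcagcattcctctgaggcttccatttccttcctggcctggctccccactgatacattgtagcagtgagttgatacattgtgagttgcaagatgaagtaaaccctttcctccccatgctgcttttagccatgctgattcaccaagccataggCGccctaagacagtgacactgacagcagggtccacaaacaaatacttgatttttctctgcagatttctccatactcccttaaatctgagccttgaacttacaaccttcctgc
Sspn middle start, marked, chr6:145933872-145934171, plus strand: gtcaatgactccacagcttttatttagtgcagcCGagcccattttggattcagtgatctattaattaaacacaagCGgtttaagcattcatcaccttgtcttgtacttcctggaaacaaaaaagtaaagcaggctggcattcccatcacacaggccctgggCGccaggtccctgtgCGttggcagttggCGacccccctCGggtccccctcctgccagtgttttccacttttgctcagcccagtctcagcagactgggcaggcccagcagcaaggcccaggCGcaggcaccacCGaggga
Dag1 start, marked, chr9:108263909-108264208, minus strand: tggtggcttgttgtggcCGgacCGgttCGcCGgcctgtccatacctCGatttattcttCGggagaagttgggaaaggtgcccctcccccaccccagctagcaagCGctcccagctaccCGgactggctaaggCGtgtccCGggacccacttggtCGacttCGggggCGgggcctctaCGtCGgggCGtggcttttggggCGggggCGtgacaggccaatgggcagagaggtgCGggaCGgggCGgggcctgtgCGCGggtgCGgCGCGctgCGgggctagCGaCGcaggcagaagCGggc

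The first of these, the muscle start of dystrophin, held 2 CpG dinucleotides in its 300 bases, and the Dp71 start of the same gene held 14. Around the Utrn A start there were 41, more than around the other 7 starts shown, and around Dag1 there were 30. The unmarked starts of Utrn and Sspn shown here held 2 each, and their marked counterparts Utrn B and the middle Sspn start held 5 and 8. Over all 32 regions the counts overlapped, from 1 to 11 at unmarked starts and from 2 to 41 at marked ones.

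Dmd differed strongly between its own starts. Of its 6 start regions, the muscle start and the start of the short form Dp71 were marked, and the other 4 were unmarked in every list. Known Dmd promoters with no start in the annotations used, such as that of Purkinje cells, were not examined. The muscle start, at 82948870 on the plus strand of chromosome X, makes the full-length dystrophin of striated muscle. Its highest peak had a fold enrichment of 5.08 in pool G and 3.26 in pool H, and of 2.60 in the replicated list. Fold enrichment is the signal value that the authors deposited with a peak, taken as its ratio to control. The share of coding genes with a promoter peak whose highest peak was lower was 4.80% in pool G, 0.618% in pool H and 0.359% in the replicated list. These shares, and those given for Dp71, are over genes of all chromosomes but Y. Dmd lies on chromosome X and the mice were female, and a rank among X-linked genes alone was not taken. In bulk tissue a low value from few cells of a type and a low value per cell cannot be told apart. The domain at the Dmd muscle start was broad in pool G and near the middle of all genes in pool H. Its peaks, joined over gaps of up to 1000 bp, formed a domain of 3356 bp in pool G, against 1778 bp in pool H (2567 ± 1116 bp, SD, n = 2 pools), and of 3246 bp in the replicated list. The share of marked genes with a narrower domain was 86.9% in pool G and 55.2% in pool H, and 87.0% of all marked start regions were narrower in the replicated list. Among the 2020 marked regions of the replicated list with a domain at least as wide, this one included, the median fold enrichment was 16.1. Of these, 3 had a lower value than the muscle start. The muscle-start value in that list, 2.60, lay below that of either pool, and no such rank was taken in a pool's own list.

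The peak at the muscle start did not cover either annotated start there. It began 37 bp downstream of the nearer start in pool G, 491 bp in pool H and 134 bp in the replicated list. Its summit lay 229 bp into the gene in pool G, against 1441 bp in pool H and 1472 bp in the replicated list, so the pools put the highest point at different places. Over all marked start regions, 9.99% had no start covered by a peak. The -log10 q of the muscle-start peak was 11.2 in pool G and 6.38 in pool H, and 4.12 in the replicated list, so a bound of 5 on that list leaves the start unmarked. A second, smaller peak lay further downstream of the muscle start in each list, but not at the same place in pool G and pool H. In pool G it ran from 82951634 to 82952295, with a fold enrichment of 2.84. In pool H it ran from 82950800 to 82951171, with 2.36 and a -log10 q of 1.63. That stretch lies inside the first peak of pool G, which ended at 82951284.

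The Dp71 start lies 2233.6 kb downstream of the 5′-most Dmd start, past 62 of the 79 full-length exons, and makes a short dystrophin found in many tissues. At this start, at 85048295, the fold enrichment was 14.0 in pool G and 11.4 in pool H, and 12.8 in the replicated list, where 34.9% of marked genes were lower. The domain was narrow, 1446 bp in pool G, 999 bp in pool H and 1406 bp in the replicated list, and the peak covered the start. In both pools the short-form start thus had the higher enrichment and the muscle start the wider domain. The starts at the positions of Dp140, past 44 exons, and Dp116, past 55 exons, had no peak within 1000 bp in any list. Dp140 is known from brain and kidney and Dp116 from Schwann cells of nerve. No list had a peak at the 5′-most start either, 134.2 kb upstream of the muscle start, where the brain form begins by its position. The remaining region, 131.8 kb from the 5′-most start and just upstream of the muscle start, was unmarked too. The coding transcripts at these 4 unmarked regions are predicted RefSeq models. At an unknown read depth, the lack of a peak does not show that the mark is absent.

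**Figure D1:**
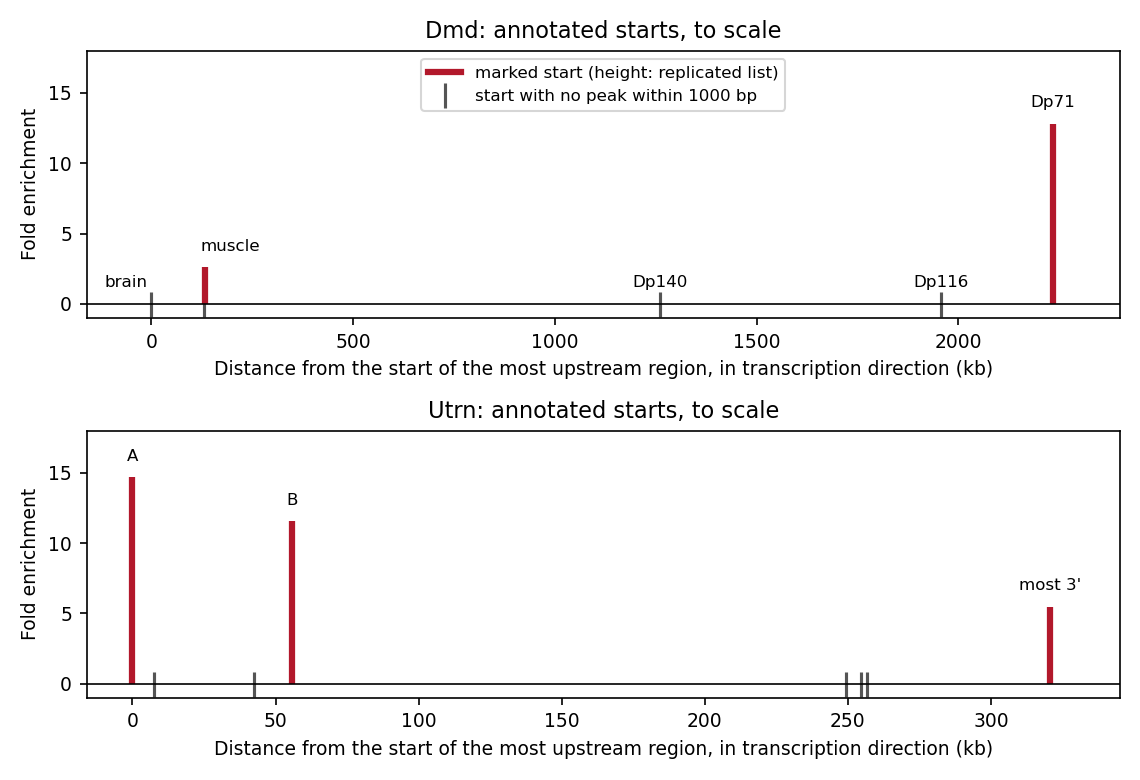
Annotated start regions of Dmd (top) and Utrn (bottom), to scale, by distance in kb from the start given for the 5′-most region, in the direction of transcription. Red bars give the fold enrichment of the highest peak in the replicated list, and grey ticks are start regions with no peak within 1000 bp. Dmd was marked at the muscle start (2.60) and the Dp71 start (12.8), and Utrn at 3 of 8 regions.

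The map of Dmd and Utrn starts shows unmarked starts lying between marked ones in both genes. Utrn encodes utrophin, the dystrophin relative that in mice can stand in for it when it is made in excess. It had 8 start regions on the minus strand of chromosome 10, of which 3 were marked in all 4 lists. The 5′-most region, between 12868171 and 12869888 and called A here from its position and CpG content, had a fold enrichment of 17.7 in pool G and 10.4 in pool H, and of 14.7 in the replicated list. Its domain was 3159 bp wide in each pool and ended at nearly the same bases. The start B, 55.8 kb downstream at 12813615, is at the position of the promoter known from endothelium. It had 14.0 in pool G and 8.20 in pool H, and 11.5 in the replicated list, with a domain of 1318 bp in pool G, against 1474 bp in pool H. The third marked start lies past 50 of 74 exons, 320.5 kb from A at 12548879, where a short utrophin would begin. It had the lowest fold enrichment of the 3, 8.06 in pool G and 3.78 in pool H, and 5.46 in the replicated list.

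The only Utrn start that RefSeq curates, at 12861735 and 7.6 kb downstream of A, had no peak within 1000 bp in any list. The same held for the start region 42.4 kb from A and for 3 regions between 249.2 and 256.7 kb from A. A summary of Utrn by that curated start alone would have called the gene unmarked, although its A start stood near the middle of all marked genes, with 46.2% of them lower.

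Dag1 encodes both subunits of dystroglycan, the laminin receptor at the centre of the complex. Its 9 annotated starts, on the minus strand of chromosome 9, formed 1 region with the highest fold enrichment of the 9 genes. The value was 24.2 in pool G and 18.1 in pool H, and 20.3 in the replicated list, where 82.1% of marked genes were lower. The domain, 3364 bp in pool G, against 2878 bp in pool H, was also among the wider ones (3121 ± 344 bp, SD, n = 2 pools).

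The 3 sarcoglycan genes differed in level and in the number of starts marked. Sgcb, for beta-sarcoglycan, has 1 start region on chromosome 5, with a fold enrichment of 17.7 in pool G and 11.7 in pool H. Its domain was compact, 1369 bp in pool G, against 1376 bp in pool H. The start of Gm43799, an unclassified transcript on the same strand, lies 199 bp away inside the same domain, and the peak cannot be divided between them.

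Sgcd encodes delta-sarcoglycan, whose loss causes cardiomyopathy in hamsters. Its curated inner start at 47379325 on chromosome 11 had a fold enrichment of 9.46 in pool G and 8.87 in pool H, and a domain of 2610 bp in pool G, against 1850 bp in pool H. A predicted outer start, 610.1 kb upstream at 47989451, was also marked in all 4 lists, at 6.82 in pool G and 4.63 in pool H. There the peak reached the start in pool G only, and began 264 bp inside the gene in pool H and 51 bp inside it in the replicated list. The start between them at 47578965, which begins the longest coding transcript of the gene, was unmarked.

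Sgca encodes alpha-sarcoglycan, which is made in striated muscle. It had the lowest value of the 9 genes at its highest peak in the replicated list, 6.28, and 10.8% of marked genes were lower. That peak lay at its curated outer start at 94976327 on chromosome 11, where the fold enrichment was 6.09 in pool G and 6.28 in pool H, and it reached the second start 1.0 kb on. A separate peak marked the third start, 2.9 kb from the first, at 7.95 in pool G and 4.05 in pool H. The higher of the 2 peaks was therefore the third-start peak in pool G and the outer one in pool H. The inner start, 5.7 kb from the first, was unmarked within 1000 bp, though a peak came within 2000 bp.

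Sspn encodes sarcospan, a small membrane protein bound to the sarcoglycans. RefSeq curates starts in 2 of its 3 regions, 2.2 kb apart on the plus strand of chromosome 6, and 1 of those 2 was marked. At the middle start, 145934122, the fold enrichment was 14.4 in pool G and 13.5 in pool H, with the summit 105 bp inside the gene in pool G, against 112 bp in pool H. The peak ended before the outer start on one side and the inner start, 21.6 kb from the outer one, on the other, and both were unmarked in every list.

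Sntb1, for beta-1-syntrophin, had 1 start region on chromosome 15, at 17.3 in pool G and 12.7 in pool H, with a domain of 2480 bp in pool G, against 2092 bp in pool H. Its summit lay 609 bp into the gene in pool G, against 549 bp in pool H. Across the 9 genes and 17 marked regions, 15 had their summit downstream of the start shown in the replicated list, and 74.7% of all marked regions had it downstream of their nearest start.

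**Figure D2:**
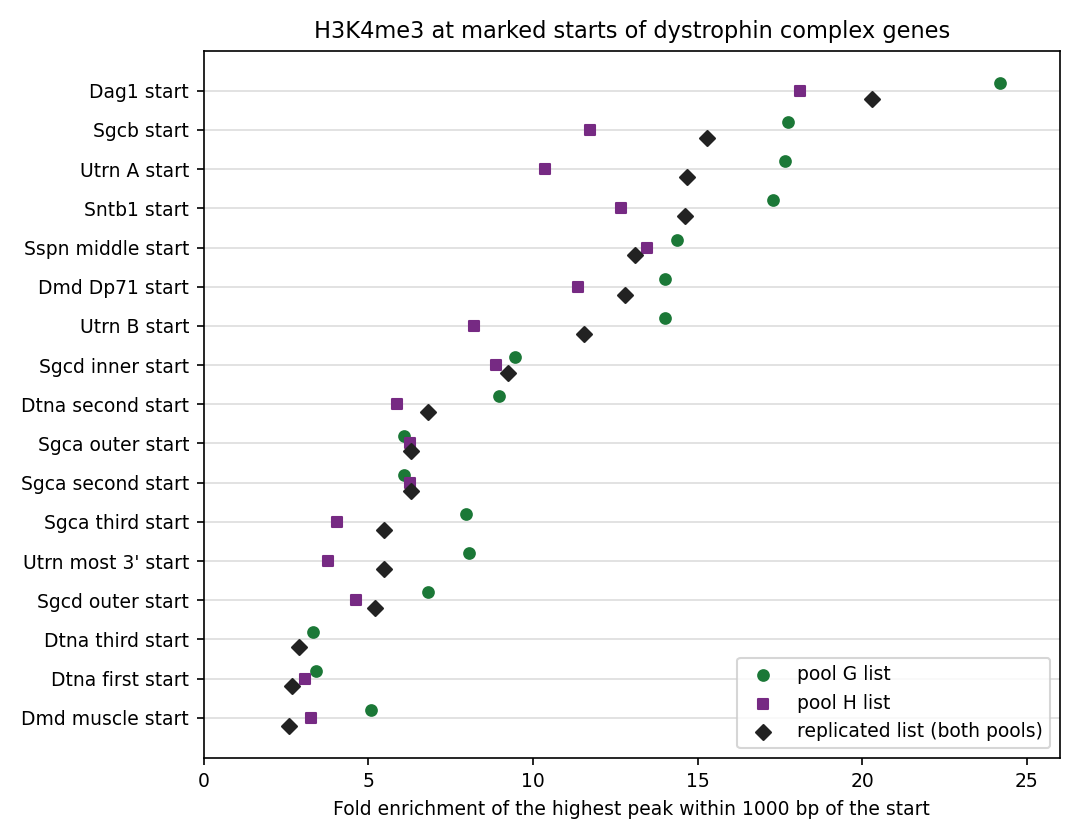
Fold enrichment of the highest peak within 1000 bp of each marked start region, in pool G's list (green circles), pool H's list (purple squares) and the replicated list of both pools (black diamonds). Dag1 is highest in each list, and the Dmd muscle start is lowest in the replicated list, at 2.60.

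Dtna encodes alpha-dystrobrevin, which binds dystrophin and the syntrophins, and it had 5 start regions over 341.5 kb of chromosome 18. The second, at 23415409, had most of the enrichment, 8.95 in pool G and 5.87 in pool H, and 6.80 in the replicated list, with a domain of 2569 bp in pool G, against 1887 bp in pool H. The first start, at 23310020, carried a small peak of 3.41 in pool G and 3.08 in pool H, 363 bp wide in the replicated list, which did not cover it. The third start had a peak of 3.33 in pool G and none in pool H, and the other 2 starts were unmarked. The third Dtna start was the one region of the 32 that differed in its call between the lists.

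**Figure D3:**
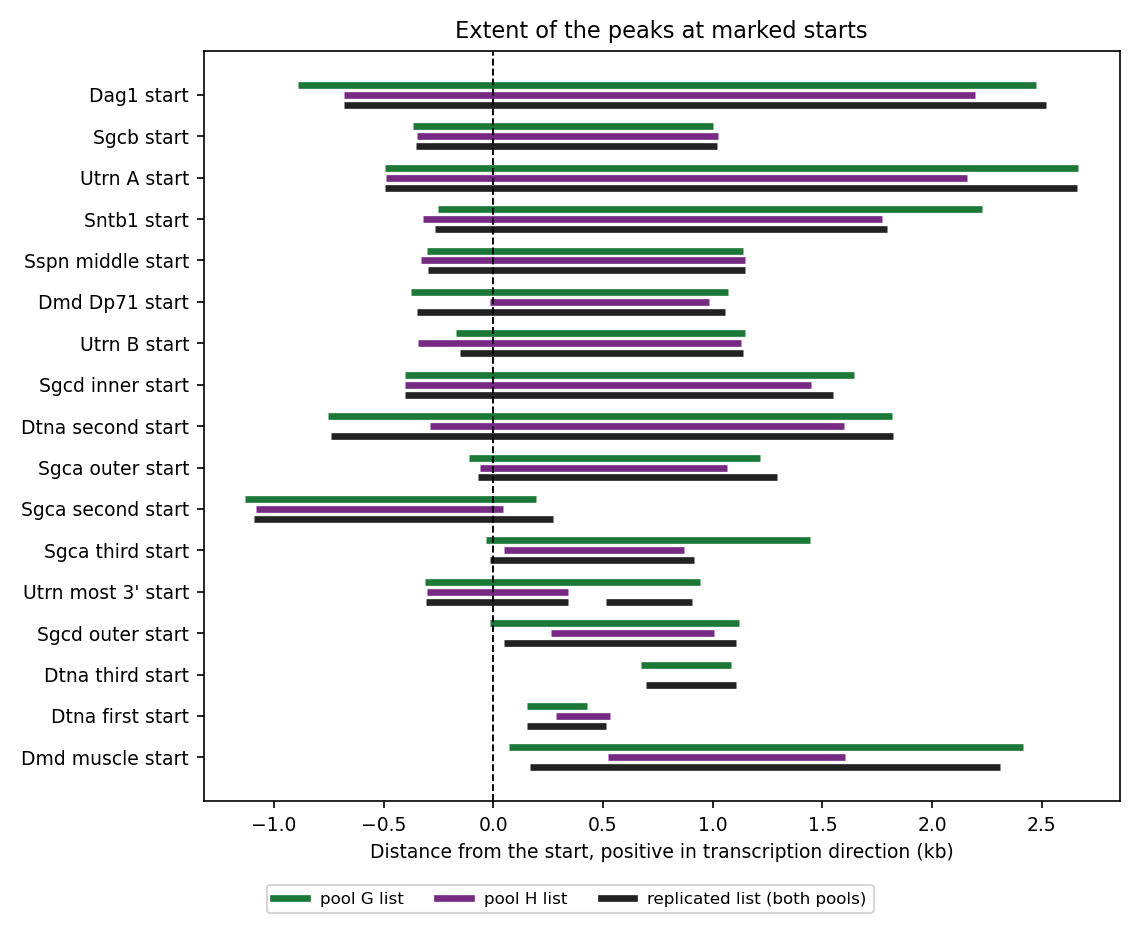
Extent of every peak within 1000 bp of each marked start region, by distance in kb from the start (dashed line), positive in the direction of transcription, for pool G (green), pool H (purple) and the replicated list (black). Most peaks span the start and reach further downstream than upstream, and the peak at the Dmd muscle start lies wholly downstream in each list.

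Pool G had higher values than pool H over the genome. The median log2 ratio of pool G to pool H was 0.51 over 13245 coding genes marked in both (SD 0.28 across genes), so the lists are on different scales and the members are read against that shift. Over the 13 marked regions of the 9 genes that hold a GENCODE coding start the median was 0.60. The ends were the outer Sgca start, at -0.04, below all but 2.99% of genes, and the most 3′ Utrn start, at 1.09, above 97.7% of them. The ratios over all genes use the highest promoter peak of each gene in each pool. Those of the 9 genes are per region and include weaker peaks, so these ranks are not like for like. The 2 Sgca peaks lay near opposite ends, since the third start had 0.97. The muscle start of Dmd had 0.64 and the Dp71 start 0.30. Whether such differences exceed the error of a pool could not be tested with 1 list each.

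At the highest peak of each gene the median fold enrichment was 14.4 in pool G and 11.4 in pool H, and 13.1 in the replicated list, where the median over all marked genes was 15.3. In the replicated list 7 of 9 lay below that median, and Dag1 and Sgcb lay above it. The median domain width of the 9 genes was 2569 bp in pool G, where that of all marked genes was 1892 bp, and 1850 bp in pool H, where it was 1680 bp. In the replicated list these medians were 2563 bp for the 9 genes and 1799 bp for all marked genes, so the excess was smaller in pool H. Of the 9 genes, 7 were wider than the median of all in pool G and 6 in pool H and in the replicated list. Sgca, Sgcb and Sspn were narrower in the replicated list, though Sspn was wider in pool G, at 2340 bp. With gaps of up to 3000 bp joined, Sgca measured 6942 bp and Sgcb 5293 bp.

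**Figure D4:**
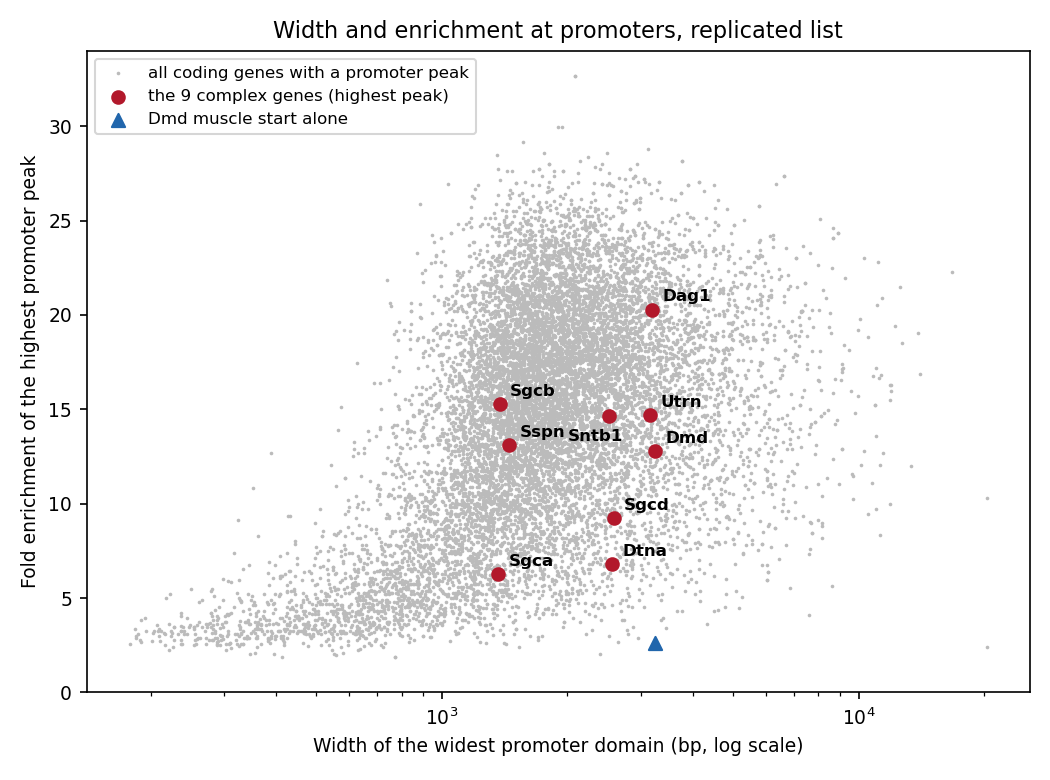
Width of the widest promoter domain (log scale) against the fold enrichment of the highest promoter peak in the replicated list, for all coding genes with a promoter peak (grey) and the 9 complex genes (red). The red Dmd point joins the enrichment of the Dp71 start to the width at the muscle start. The blue triangle gives the muscle start alone, 3246 bp wide at a fold enrichment of 2.60, below nearly all regions at least as wide in that list.

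The starts differed in CpG content. Promoters rich in CpG, here those whose surrounding 1000 bp had an observed over expected ratio of 0.6 or more with a GC share not under 0.5, were marked in 96.7% of genes, and the remaining genes in 46.0%. The gene classes rest on GENCODE coding starts. By these, Utrn, Dag1 and Sgcb were rich by that measure and the other 6 genes were not, and all 9 were marked. By region, the ratio was 0.13 to 0.79 (median 0.36) over the 17 marked regions and 0.11 to 0.33 (median 0.23) over the 15 unmarked ones. The lowest marked value was that of the Dmd muscle start. Within Utrn, A had a ratio of 0.75 and B of 0.24, while the unmarked curated start had 0.26, so marked B and that unmarked start had similar ratios over this window. The first Dtna start, a coding start in RefSeq but not in GENCODE, was CpG-rich, with a ratio of 0.77. It was marked at a fold enrichment of 2.69. Over all coding genes 96.3% of CpG-rich start regions were marked.

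**Figure D5:**
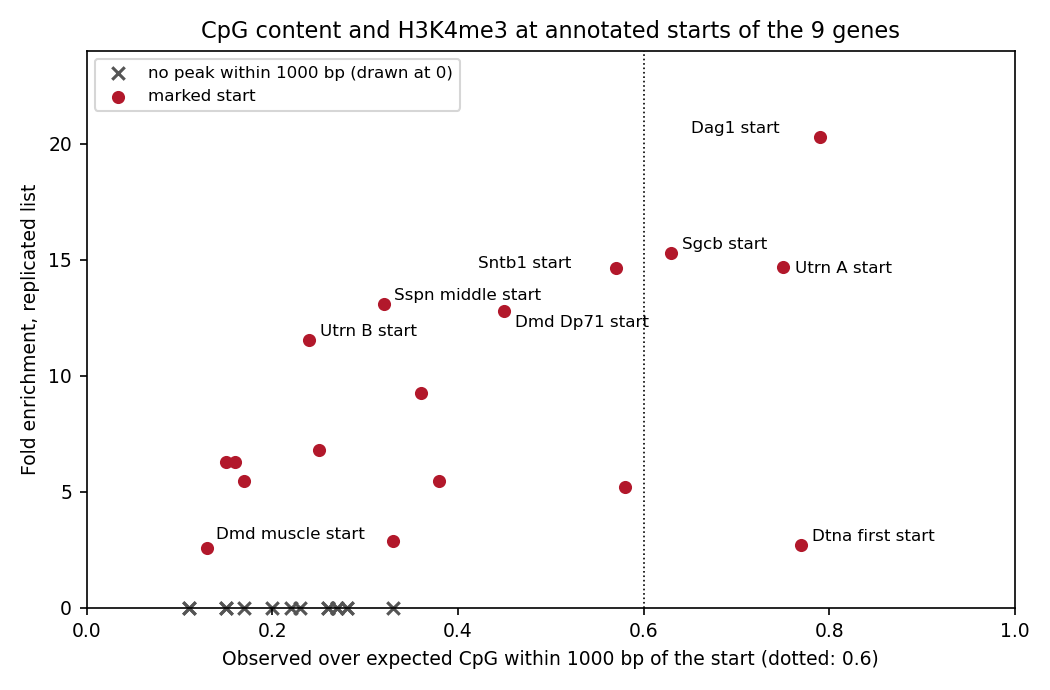
Observed over expected CpG within 1000 bp of each of the 32 start regions against the fold enrichment in the replicated list. Red circles are marked starts, grey crosses on the axis are the 15 starts with no peak, and the dotted line is the bound of 0.6. All unmarked starts lie at or below 0.33, where marked starts such as the Dmd muscle start (0.13) also lie.

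Short motifs were sought on both strands in the 300 bases around each of the 32 starts, and their shares over 54052 start windows of all coding genes are given for scale. The CArG box, the site of serum response factor in muscle genes, was found at 1 of 32 starts, the Dmd muscle start, at bases -98 to -89, and in 1.33% of all windows. The MEF2 site was found at none of the 32 and in 0.451% of all windows. The MCAT element CATTCC, bound by TEAD factors, was found at 6 of 32 starts and in 13.0% of all windows. Both the marked and the unmarked curated Sspn start held it. The N-box TTCCGG, known from the utrophin A promoter, was found at 3 starts, among them Utrn A at -237 to -232, and in 17.7% of windows. The GC box GGGCGG was found at 9 starts, with 3 matches at Dp71 and 3 at Dag1, and in 43.3% of windows. The E-box CANNTG was found at 25 starts (69.2% of windows), the GATA motif AGATAA at 5 (9.71%) and the TATA box TATAAA at 7 (11.3%). Some GC box matches at Dp71 overlap each other. These matches describe the letters alone.

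Of 13 other genes of the complex, 11 were marked in the replicated list and in pool G and 10 in pool H. Over all coding genes the shares were 63.0% in the replicated list, 63.4% in pool G and 61.3% in pool H. Sntg1, for a syntrophin known from brain, and Nos1, for neuronal nitric oxide synthase, which binds the complex in skeletal muscle, were unmarked in every list. Drp2, for a dystrophin relative of Schwann cells, had a peak of 4.17 in pool G and none in pool H. The highest values in the replicated list were 18.3 for Sntb2, 18.1 for Dtnb and 13.2 for Dysf, which encode a syntrophin, a dystrobrevin and the membrane repair protein dysferlin. All 18 genes that build the sugar chain of dystroglycan were marked in all 4 lists, with a median fold enrichment of 16.7 in the replicated list, where that of all marked genes was 15.3. In this list 9 of 18 were CpG-rich, a class marked in 96.7% of all genes, and the other 9 fall in the class marked in 46.0%.

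The heart label was checked against marker genes. All 5 cardiomyocyte, all 4 endothelial and all 4 fibroblast markers were marked in the replicated list, as were 3 of 5 of smooth muscle and pericytes. Over all coding genes 63.0% were marked in that list, and the count for smooth muscle and pericytes lay near that share. Of the skeletal muscle markers 1 of 5 was marked, Ckm, which heart also uses. No marker of 3 for leukocytes, 2 for adipocytes or 2 for hepatocytes was marked, and 1 of 3 for neurons (Syt1) was. Promoters of markers of several cell types were thus marked, and which cells carried each start of the 9 genes was not tested. Myh6, the cardiac myosin heavy chain, had a domain of 20319 bp at a fold enrichment of 10.3, Actb had 20.8, and Alb was unmarked.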

How the data were processed

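Per the labels' protocols, frozen tissue was used and fragments ranged in size from 200 to 600 bp. The authors deposited 4 peak lists in narrowPeak format on mm10, in which both technical replicates of a pool enter as 1 alignment. The peak caller and its threshold are not given in the sources used here, nor is read depth, so the precision of a value is unknown. Of each list 3 value columns were used, by the order of the format: the deposited signal value, read as a fold ratio to control, which is an assumption since the files do not name it, the deposited -log10 q, and the summit.

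Starts of protein-coding transcripts were taken from GENCODE M21 and, added after the data were seen, from RefSeq messenger RNAs of the same build. Starts up to 1000 bp apart formed a region, marked where a peak overlapped 1000 bp either side by at least 1 bp. Peaks up to 1000 bp apart formed a domain. The start given for a region is its curated RefSeq start, else that of its longest GENCODE coding transcript, else its 5′-most start. Dmd forms were named by the full-length exons before a start.

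The genes named were all 9 members, the fewer of marked or unmarked and the 3 highest of each further list, neighbours sharing a domain, and controls, and some of these are not reported here. Members and lists were chosen with earlier results of these data known. Interval code was tested on simulated data. All 2000 starts gave the same answer as a direct comparison with every peak, and all 1258 domains equalled those of bedtools 2.31.1. Python 3.11.15, numpy 2.4.6, pandas 2.3.3 and matplotlib 3.10.9 were used.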

Additional observations from a re-analysis of the deposited data

How the results depend on the processing

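No paired analysis was possible because the lists are per pool and no result comes from a test. With 1 pool left out in turn, 9 to 9 of the 9 genes and 14 to 14 of 22 start regions were marked, and 10 to 11 of 13 complex genes and 18 to 18 of 18 glycosylation genes. Taking the start of the longest coding transcript only, 6 of 9 start regions were marked, with Utrn, Sgcd and Sspn unmarked, because the start of that transcript is one of their unmarked ones. The Dmd muscle start was not marked with a -log10 q of at least 5, nor when a peak had to cover the start, which left 13 of 22 regions in each case. A window of 2000 bp gave 15 regions, starts of all transcripts 15 of 37, starts joined at 100 bp 18 of 26 and at 3000 bp 12 of 18. The domain widths of Sgca and Sgcb, 1364 and 1375 bp, were 6942 and 5293 bp with gaps of up to 3000 bp joined, and the widest Dmd domain was 1406 bp, at Dp71, with a -log10 q of at least 5. The highest Dmd fold enrichment was 2.60 with the longest transcript only, which starts at the muscle start. CpG-rich regions with a GENCODE coding start numbered 3, and 4 or 2 with ratio bounds of 0.5 or 0.7. Motif counts in 1000 bp either side of a start were higher for each motif. With 1 list per pool, a weak peak called in 1 pool, as at the third Dtna start, is not shown to be absent from the other.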

Other observations

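Peaks within the 9 genes but over 1000 bp from any start numbered 4 in pool G, 2 in pool H, 4 in the replicated list and 7 in the pseudoreplicated list of both pools. Most of them lay within 2803 bp of a start. The farthest was a peak of 349 bp in Utrn, at 12736900 to 12737248 on chromosome 10 and 76326 bp from the nearest start, with a fold enrichment of 2.56. It was in the pseudoreplicated list of both pools and in no other. In Sntb1 a peak 9062 bp from the start, 265 bp wide with a fold enrichment of 2.77, was in pool G's list and not in pool H's or the replicated one. In Sspn a peak began 1331 bp past the marked middle start, with a fold enrichment of 3.95, and was in pool G's list and not in pool H's. The wider Sspn domain of pool G, 2340 bp against 1478 bp in pool H, comes from that peak. The pseudoreplicated list of both pools had overlapping peaks at both sites, at 1.98 in Sntb1 and 3.09 in Sspn.

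Over all coding genes with more than 1 start region by GENCODE coding starts, 7311 in number, 12.3% had every region marked, 55.0% had some and 32.7% none. Dmd, Utrn, Sgca, Sgcd, Sspn and Dtna, the members with several regions, each had some marked and some not when both annotations are used. By GENCODE alone, on which the shares over all genes rest, Dmd had 2 regions and both were marked.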
